A study of Mus musculus with 4 samples.

Results

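The cells described here are C1q-expressing kidney macrophages that also hold Cd5l mRNA. They were selected on raw UMI counts (unique molecular identifiers, 1 per captured mRNA molecule) in single barcodes: at least 1 UMI of Ptprc, at least 10 of C1qa, C1qb and C1qc together, and at least 2 of Cd5l. They also had to hold at most 2 UMIs of the cell-cycle genes Mki67 and Top2a, none of Cd3d, Cd3e and Cd3g, at most 1 of Cd79a, and at most 3 of the tubule genes Lrp2 and Slc34a1. Of 76278 barcodes, 50605 passed the limits on depth and mitochondrial RNA, 3022 of those were C1q macrophages, and 61 of these met the Cd5l threshold. Their counterparts were the 2939 C1q macrophages with 0 Cd5l UMIs, while 22 with 1 UMI belonged to neither set. The 61 were spread very unevenly: 56 came from DMSO replicate 1, 2 from DMSO replicate 2, 1 from BPTES replicate 1 and 2 from BPTES replicate 2. Every statement on the 61 as a group is therefore a statement on 1 library unless it says otherwise.

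The kidneys had been taken from C57BL/6 males at an age of 19 months, after 1 month on either BPTES, a small-molecule inhibitor of glutamine metabolism, or DMSO, its vehicle. Each group had 2 libraries, and no untreated or younger group was used here. Each library pooled 20000 CD45-negative with 9000 CD45-positive sorted cells, so shares are given only among macrophage barcodes. How many mice stood behind a library is not given in the sources used here, and p-values measure the spread between libraries, which may be technical.

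CD5L, also called AIM (apoptosis inhibitor of macrophages), is a scavenger-receptor cysteine-rich protein that tissue macrophages secrete into blood, where it travels bound to IgM. In kidney it is known for marking dead-cell debris inside injured tubules for clearance. Its gene is a target of the oxysterol receptor LXR-alpha (Nr1h3), and it is highly expressed in macrophages of liver and spleen. There, the ETS factor SPIC and the adhesion molecule VCAM1 mark macrophages that recycle iron from aged red cells, with the heme-degrading enzyme Hmox1 and the iron exporter ferroportin (Slc40a1).

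The promoters of Cd5l itself and of 2 genes that were high in the same barcodes, Spic and Fcna, are shown because all 3 mRNAs were high together in DMSO replicate 1. The windows are RefSeq's on GRCm38.p6 and run from 250 bases before to 50 bases after the annotated start. Of 8 genes looked for in that table, 5 were matched. Cd5l lies at chr3:87357631-87357930 on the plus strand, Spic at chr10:88682974-88683273 on the minus strand and Fcna at chr2:25627925-25628224 on the minus strand.
Cd5l: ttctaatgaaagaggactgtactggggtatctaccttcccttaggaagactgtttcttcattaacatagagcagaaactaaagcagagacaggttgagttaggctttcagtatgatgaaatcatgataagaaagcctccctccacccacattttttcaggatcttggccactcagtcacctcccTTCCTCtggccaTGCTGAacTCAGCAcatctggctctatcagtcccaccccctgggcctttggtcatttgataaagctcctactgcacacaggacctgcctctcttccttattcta
Spic: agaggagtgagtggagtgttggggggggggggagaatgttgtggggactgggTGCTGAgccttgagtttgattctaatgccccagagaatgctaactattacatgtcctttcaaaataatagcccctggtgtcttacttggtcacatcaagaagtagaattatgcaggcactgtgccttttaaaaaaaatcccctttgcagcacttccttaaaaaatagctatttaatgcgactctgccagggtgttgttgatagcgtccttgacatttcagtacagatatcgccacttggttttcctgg
Fcna: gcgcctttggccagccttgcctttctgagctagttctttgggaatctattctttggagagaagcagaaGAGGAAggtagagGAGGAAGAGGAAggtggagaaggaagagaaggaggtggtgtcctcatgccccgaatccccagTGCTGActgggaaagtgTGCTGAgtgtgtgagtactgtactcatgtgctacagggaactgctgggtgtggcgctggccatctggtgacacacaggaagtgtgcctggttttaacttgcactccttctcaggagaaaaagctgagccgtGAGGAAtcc
Capitals mark exact matches, on both strands, to 3 short motifs: GAGGAA, a core bound by PU.1-type ETS factors, TGCTGA, a half-site bound by Maf factors, and AGGTCA, a half-site bound by nuclear receptors such as LXR. With the start as position 0, the Cd5l window held GAGGAA on the opposite strand at -66 to -61 and TGCTGA at -54 to -49 and, on the opposite strand, at -46 to -41. The Spic window held TGCTGA at -198 to -193 and the Fcna window held GAGGAA at 4 positions, of which 2 adjoin, and TGCTGA at 2. None of the 3 windows held AGGTCA. Among 32817 windows of the same length, 28.3% held GAGGAA, 19.5% held TGCTGA and 16.3% held AGGTCA, and a match is a description of letters, not a bound site.

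Cd5l UMIs chose these barcodes, so their Cd5l levels are a description. In DMSO replicate 1 the 56 barcodes held from 2 to 359 Cd5l UMIs with a median of 18, and 22 of them held more than 50. Outside that library the highest value was 14. The single barcode of BPTES replicate 1 held 7 UMIs, those of BPTES replicate 2 held 2 and 14, and those of DMSO replicate 2 held 2 and 2. Just inside the threshold, at 2 UMIs, stood 5 barcodes of DMSO replicate 1, and just outside, at 1 UMI, stood 13. The 56 barcodes held 3692 of the 6214 Cd5l UMIs found in passing barcodes of DMSO replicate 1, whereas the other libraries held 37, 23 and 29 Cd5l UMIs in all their passing barcodes.

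**Figure D1:**
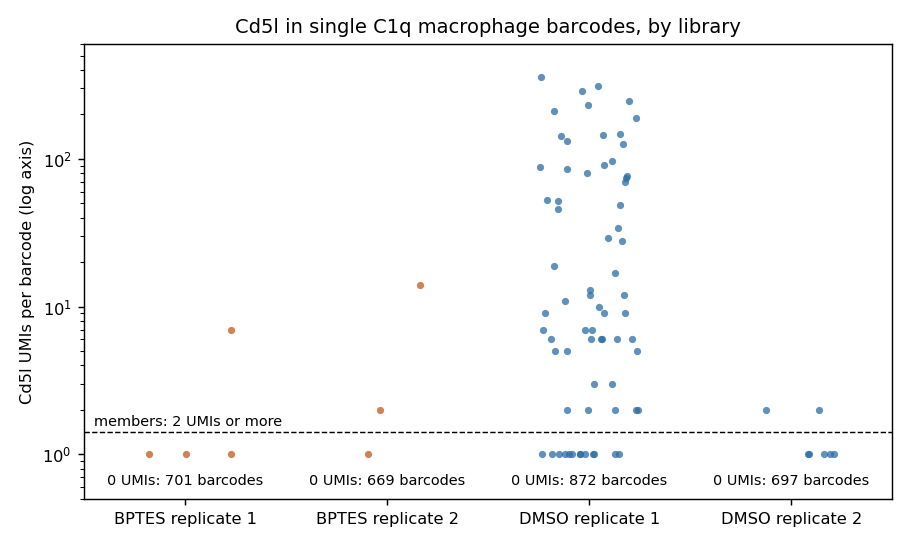
Cd5l UMIs in each C1q macrophage barcode with at least 1 (log axis, points jittered sideways) in the 4 libraries, with the number of barcodes at 0 printed below. The dashed line lies between 1 and 2 UMIs, and only DMSO replicate 1 has barcodes above 14 UMIs, up to 359.

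A low Cd5l background was present in DMSO replicate 1. Among T cell barcodes of that library, 5 of 1103 held a Cd5l UMI (0.453%, exact 95% interval 0.147 to 1.05%), as did 24 of 4681 proximal tubule barcodes (0.513%, 0.329 to 0.762%). None of these held more than 1. Among C1q macrophages of that library the share with a UMI was 7.33% (5.75 to 9.19%), at a median of 17966 UMIs per barcode against 12130 in T cells and 19824 in proximal tubule. T cell barcodes here held at least 2 Cd3 UMIs and at most 2 C1q UMIs. Tubule barcodes held at least 10 UMIs of Lrp2 and Slc34a1 and none of Ptprc. The barcodes of 1 UMI can thus hold background, and the threshold of 2 lay above every barcode of these 2 sets. Both sets were chosen to hold little or no macrophage RNA, so they do not show the background of mixed barcodes. A further 50 barcodes of DMSO replicate 1 held at least 2 Cd5l UMIs but failed another criterion: 32 held a Cd3 UMI, 19 exceeded the cell-cycle limit, 15 the tubule limit and 11 the Cd79a limit, with overlaps. The Cd3 criterion removed a like share of C1q barcodes with and without Cd5l, 31.7% (22.8 to 41.7%) and 30.7% (28.5 to 33.0%). The tubule criterion removed 14.9% (8.56 to 23.3%) of those with at least 2 Cd5l UMIs and 6.58% (5.42 to 7.90%) of those with none, and the Cd79a criterion 10.9% (5.56 to 18.6%) and 6.39% (5.25 to 7.70%).

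The macrophage label was met by the barcodes of DMSO replicate 1. All 8 macrophage markers were detected, and their summed level was 20900 counts per 1000000 UMIs (CPM) against 8071 in the Cd5l-zero barcodes of the same library. Apoe made up 16660 and 5092 of these sums, and Csf1r (782 against 681), Fcgr1 (193 against 196) and Ms4a7 (490 against 439) were close. The F4/80 gene Adgre1 stood at 468 against 530 and was detected in 54 of 56 barcodes, and C1q UMIs ran from 37 to 1282 with a median of 518.5. Of genes known from liver macrophages, Vsig4 and Fcna had 294 and 1346 UMIs in the 56 barcodes, while Clec4f, Timd4, Marco and Lyve1 had none, which allows a share of up to 5.36% of barcodes with a UMI and a level of up to 1.31 CPM. Clec4f had no UMI in any set, and Marco and Lyve1 stood below that level in Cd5l-zero barcodes too. Albumin (Alb) and the globin gene Hba-a1 also had none. Summed markers of other cell types were lower in the 56 than in Cd5l-zero barcodes for T and NK cells (11.0 against 48.2 CPM), B and plasma cells (163 against 375) and proximal tubule (321 against 450.5), and close for neutrophils (980 against 947). The endothelial sum was higher (108 against 74.1), but Pecam1 made up most of it. Of 5 measured endothelial markers, 4 were at least 2-fold lower and only Pecam1 was higher. Nonclassical monocyte markers were higher too, at 502 against 329 CPM, with 3 of 5 at least 2-fold higher (Treml4, Eno3 and Ace) and 1 at least 2-fold lower (Spn, at 46.9 against 111), and their part in the results was not tested. The plasma cell genes Igkc and Jchain stood at 34.2 and 3.07 CPM against 80.8 and 6.15. The Cd5l-positive barcodes were also deeper, with a median of 33952 UMIs against 17212 and 5882 detected genes against 4210.

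The 5 barcodes outside DMSO replicate 1 went against the label in part. The barcode of BPTES replicate 1 had a C1q sum of only 38 and carried dendritic cell genes, with 63 UMIs of Clec9a, 47 of Xcr1 and 41 of Flt3. Its dendritic marker sum was 1768 CPM against 241 in Cd5l-zero barcodes of that library. Across the other 3 libraries the dendritic sums of Cd5l-positive barcodes were 15.3 to 202. Libraries shared 36 to 54 barcode sequences per pair, and 3 of the 61 also occurred as passing barcodes of another library.

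Within DMSO replicate 1 the Cd5l-positive barcodes carried an iron-recycling and scavenging profile and had lower chemokine transcripts than their Cd5l-zero neighbours. This is a comparison inside 1 library, so it has no test: levels are CPM in summed barcodes, and intervals are exact 95% intervals that cover counting error only. Of 9736 genes with a mean level of at least 5 CPM, 440 were at least 2-fold higher (4.52%) and 657 at least 2-fold lower (6.75%), with a median log2 ratio of -0.00. The genes of each group below come from lists that had been drawn up with earlier results on these cells known. Those percentages stand beside a list's count for scale. An excess over them can come in part from the choice of genes, so it is a description and no test.

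**Figure D2:**
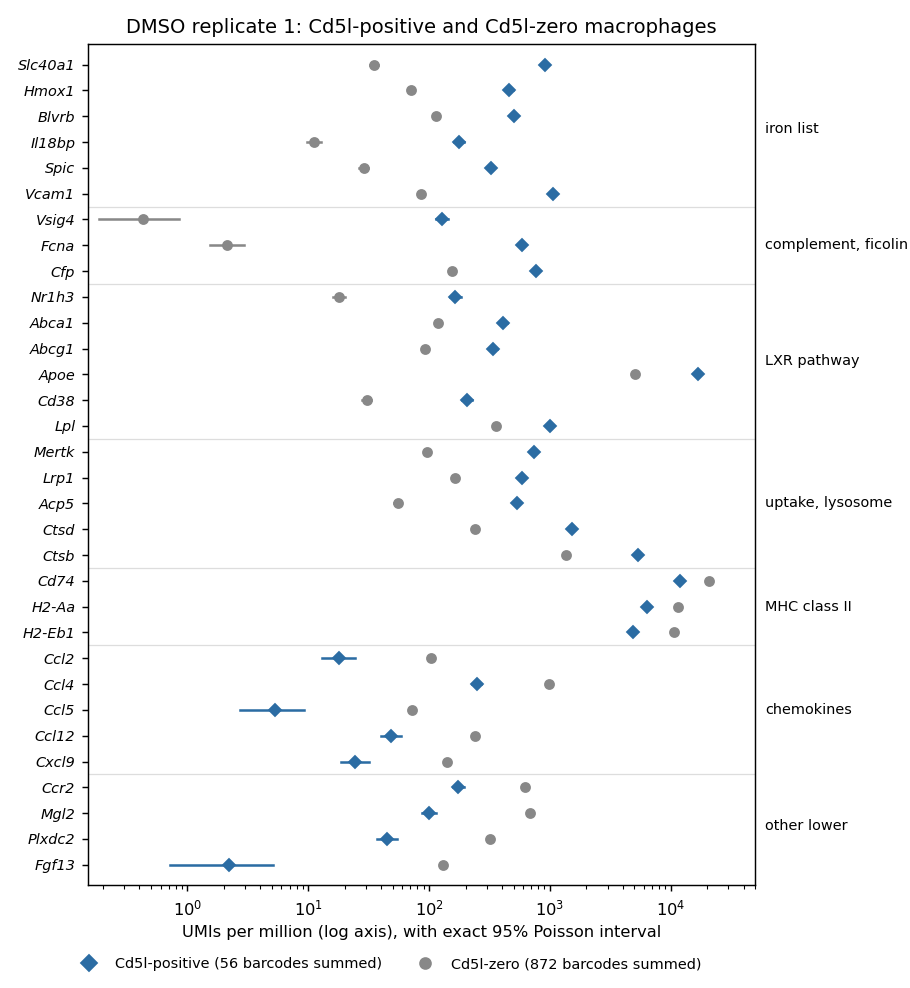
Levels (CPM, log axis) of 32 genes in the summed 56 Cd5l-positive barcodes (diamonds) and 872 Cd5l-zero barcodes (circles) of DMSO replicate 1, with exact 95% Poisson intervals as bars, grouped by gene list. The iron, complement, LXR and lysosomal genes lie to the right in Cd5l-positive barcodes, Slc40a1 at 908 against 35.2, and the MHC class II and chemokine genes lie to the left.

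Of 17 measured genes in the list on iron recycling and the Kupffer or red pulp programme, 14 were at least 2-fold higher and none was 2-fold lower, with a median log2 ratio of 1.50. The list is called the iron-recycling genes below and also holds genes of the wider programme, such as Vcam1, Vsig4 and Hpgd. The ferroportin gene Slc40a1 stood at 908 CPM against 35.2, a 25.8-fold difference (23.7 to 28.3), and was detected in 96.4% against 7.91% of barcodes. Spic, the ETS factor required for red pulp macrophages, stood at 323 against 28.9. Vcam1, which mediates adhesion and retention of leukocytes, stood at 1067 against 85.8. Il18bp, a secreted decoy for interleukin 18, stood at 176 against 11.2. The heme-handling genes followed: Hmox1 at 462 against 71.3, the biliverdin reductases Blvrb at 499.5 against 113 and Blvra at 157 against 55.4, and the heme transporter Slc48a1 at 86.3 against 27.7. Storage genes differed less, Ftl1 by 1.14 and Fth1 by 0.40 on the log2 scale. Hmox1 was carried by few cells: 2 barcodes with 283 and 243 UMIs held 49.8% of the 1056, and the one with 243 was a predicted doublet. The haptoglobin-hemoglobin receptor Cd163 was low in both sets, at 13.1 against 6.10.

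A pair of genes for lectin and complement recognition had few UMIs in Cd5l-zero barcodes of that library. Fcna (ficolin A, a lectin that starts the complement cascade on microbial sugars) stood at 589 CPM against 2.14, a 275-fold difference (201 to 387), and was found in 91.1% of Cd5l-positive and 1.72% of Cd5l-zero barcodes. Vsig4, the complement receptor CRIg, stood at 129 against 0.43, but in only 14 of 56 barcodes, and 6 of them held 97.3% of its 294 UMIs. Cfp (properdin, which stabilises the alternative-pathway convertase) stood at 770 against 156. Of 11 measured complement genes, 4 were at least 2-fold higher and 3 at least 2-fold lower, the latter including the integrin genes Itgam and Itgax.

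Cholesterol-handling genes of the LXR pathway were also higher. Of 18 measured genes, 12 were at least 2-fold higher and none 2-fold lower, with a median log2 ratio of 1.59. The receptor Nr1h3 stood at 165 against 17.9 CPM and its partner Rxra at 60.0 against 10.1. The cholesterol exporters Abca1 and Abcg1 stood at 410 against 119 and at 338 against 93.3. Apoe, which encodes apolipoprotein E, stood at 16660 against 5092, and Cd38, an NAD-consuming ectoenzyme, at 205 against 30.3. Nr1h2, the second LXR gene, stood at 37.2 against 36.9. Cd5l, itself an LXR target, was left out of these counts.

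Several genes of uptake and digestion were higher as well. Of 19 measured scavenger and efferocytosis receptors, 7 were at least 2-fold higher and 2 at least 2-fold lower. Mertk, a receptor for apoptotic cells, stood at 736 against 96.1 CPM and Lrp1 at 587 against 164, while Axl (551 against 330) and the mannose receptor Mrc1 (952 against 677) differed by less than 2-fold. Of 26 lysosomal and lipid genes, 9 were at least 2-fold higher and 1 lower. Acp5 stood at 532 against 54.9, the protease genes Ctsd and Ctsb at 1507 against 240 and 5382 against 1360, and Trem2 at 179 against 127. Among growth factors, Igf1 stood at 565 against 76.6.

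Of 19 macrophage transcription factors, 4 were at least 2-fold higher (Spic, Nr1h3, Tcf7l2 and Maf) and 1 at least 2-fold lower (Klf4). Tcf7l2, a Wnt-pathway factor, stood at 495 against 92.0 CPM and Maf at 399 against 171, while Spi1, which encodes PU.1, stood at 488 against 512. Surface genes of resident macrophages mostly stayed close, with 2 of 18 at least 2-fold higher and 2 lower. Cx3cr1 stood at 359 against 565, and the folate receptor Folr2 at 21.5 against 5.62.

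Transcripts of recruitment and inflammation were lower. Of 16 chemokine genes, none was 2-fold higher and 10 were at least 2-fold lower, with a median log2 ratio of -1.35. Ccl4 stood at 247 against 990 CPM, Ccl12 at 48.6 against 238, Cxcl9 at 24.5 against 140.5 and Ccl2 at 18.0 against 103. Ccl5 stood at 5.25 against 71.5, with a UMI in 17.9% and 15.8% of barcodes. Ccl17 had no UMI in the 56 barcodes and 1276 in the Cd5l-zero barcodes, 52.0-fold lower when 3 counts are set over the group. Only 5.62% of Cd5l-zero barcodes held those UMIs, and a 0 in 56 barcodes allows a share of up to 5.36%. The Cd5l-zero share lay just above that limit, and the difference in shares was not tested. Of 19 inflammatory genes, 6 were at least 2-fold lower, among them Il1b (567 against 1337) and Tnf (47.3 against 156), and 2 were higher, Il18 (a log2 difference of 2.00) and Il1a (63.9 against 14.6). Of 20 immediate early and dissociation genes (immediate early genes below), 10 were at least 2-fold lower and none higher. The 10 include the heat shock genes Hspa1a and Hspa1b, and tissue digestion also induces genes of this list. None of the 24 interferon-response genes differed by 2-fold.

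Genes of monocyte-derived cells were lower in part. Ccr2, the receptor that brings monocytes out of the bone marrow, stood at 175 against 624 CPM, and 6 of 18 genes of monocyte-derived cells were at least 2-fold lower with none higher. The 14 genes of the MHC class II list, which also holds Cd40, Cd80, Cd86 and Ctss, had a median log2 ratio of -0.73 beside -0.00 over all genes. Of the 14, 1 (H2-Eb1) was at least 2-fold lower, beside 6.75% of all genes. Their median was -1.04 among barcodes of like depth and -1.02 with no UMI of the other gate genes. Cd74 stood at 11870 against 20800 and H2-Aa at 6302 against 11400. Genes of alternative activation split, with 4 of 17 at least 2-fold higher and 6 lower. The lectin gene Mgl2 stood at 99.8 against 688, and Retnla had 1 UMI in the 56 barcodes against 57.4 CPM in the others, where 1 barcode held 329 UMIs. Retnla was found in like shares of both sets, 1.79% and 1.83% of barcodes, whereas Cbr2 stood at 92.8 against 9.26.

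Glutamine and glutamate genes differed in both directions. Glul, which makes glutamine, stood at 337 CPM in Cd5l-positive barcodes against 86.0. Of 18 measured glutamine and glutamate genes, 3 were at least 2-fold higher and 3 at least 2-fold lower, and of 15 genes of the ATF4 amino acid response, 1 was higher and 2 were lower. Senescence and p53 genes had 1 of 12 higher and 1 lower. The cell-cycle inhibitor genes Cdkn1a and Cdkn2a stood at 76.2 against 126 and at 2.63 against 17.5.

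By a rule of size (the 12 largest ratios each way among genes with a mean of at least 32 CPM), the genes highest in Cd5l-positive barcodes were Vsig4, Fcna, Itgad, Stab2, Epb41l3, Mmp27, Slc40a1, Adamdec1, Tmem26, Myo10, Ccr3 and Gtf2ird1. Itgad, the integrin alpha D chain, stood at 104 against 2.09 CPM, and Stab2, a hyaluronan scavenger receptor, at 89.3 against 1.93. Those lowest were Fgf13, Ccl17, Ccl5, Dlc1, Ptchd1, Ctnnd2, Plxdc2, Mgl2, Ube2e2, Ch25h, Hs3st3a1 and Tnfsf13b. Plxdc2 stood at 45.1 against 320 and Fgf13 at 2.19 against 131. Thinned to 3000 UMIs per barcode, limited to barcodes of like depth, or without predicted doublets, none of these 24 genes changed direction. They had been picked as the largest ratios of the same barcodes, so a kept direction is no check of them. Sizes did move: over all settings run, 49 values lay outside the gene's first interval and 95 within it. The log2 ratio of Mgl2 went from -2.784 to -5.475 at like depth. After thinning, the Cd5l-positive sum held 168000 UMIs, and each sum was set to at least 3 counts. That floor set the thinned ratio of Ccl17 (-1.393 after -5.7), which had no UMI. It can also set that of Ctnnd2 (-1.357 after -2.892). Such values are among those outside the first interval and show no change of size. Among barcodes between the 25th and 75th percentile of Cd5l-positive depth, the log2 ratio was 4.44 for Slc40a1 against 4.69 in all, and 7.23 for Fcna against 8.11.

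The profile was present in the summed barcodes of low Cd5l count, and the levels of some of its genes differed between classes of Cd5l. At exactly 2 Cd5l UMIs it was patchy: the 5 barcodes held 3, 3, 31, 110 and 1 UMIs of Slc40a1. In the same order they held 0, 0, 0, 9 and 14 of Vcam1, 0, 10, 2, 0 and 0 of Fcna, and 0, 18, 2, 10 and 7 of Spic. The barcode with 110 was a predicted doublet. In barcodes with 2 to 6 Cd5l UMIs (16 barcodes) Slc40a1 stood at 930.5 CPM (exact 95% interval 854 to 1012), with 7 to 50 (18 barcodes) at 662 (600 to 729), and above 50 (22 barcodes) at 1038 (978 to 1101). Vcam1 stood at 934, 748 and 1323 and Spic at 244, 315 and 371. Fcna stood at 205, 265 and 987 and Vsig4 at 13.6, 64.6 and 229. Vsig4 was found in 3 of 16, 2 of 18 and 9 of 22 barcodes of these classes, whose median depths were 32404, 28680.5 and 41264 UMIs, and the spread between cells was not tested. Mgl2 stood at 120, 212 and 24.2 and Cd74 at 13770, 13230 and 10050. The 13 barcodes with 1 Cd5l UMI stood at 348 for Slc40a1 and 662 for Vcam1 and at the Cd5l-zero level for Ccr2 (607 against 624) and Cd74 (21310 against 20800). Their Slc40a1 was a mixture, since 4 barcodes held 29, 34, 45 and 54 of its 163 UMIs and 8 held none.

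**Figure D3:**
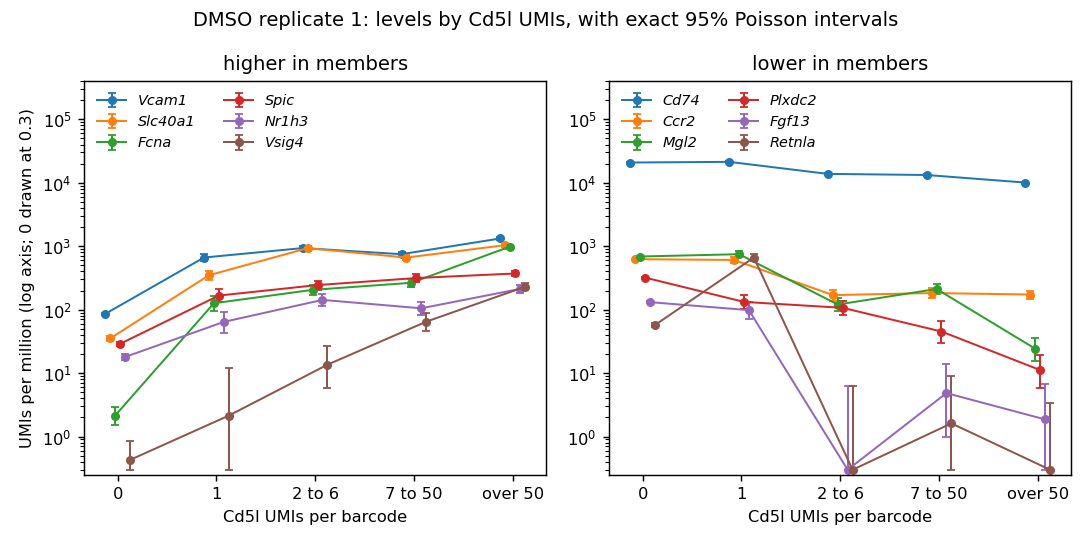
Levels in DMSO replicate 1 (CPM, log axis, 0 drawn at 0.3) of 6 genes higher and 6 genes lower in Cd5l-positive barcodes, by Cd5l UMIs per barcode, with exact 95% Poisson intervals as bars and a line per gene. Slc40a1 and Vcam1 are already high in the summed barcodes with 2 to 6 Cd5l UMIs, while Fcna reaches 987 only above 50.

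Single barcodes varied around that profile. Slc40a1 was at 10 or more UMIs in 46 of 56, Vcam1 in 47, Spic at 3 or more in 45 and Fcna at 3 or more in 44, and 35 met all 4 criteria. Those 35 comprised 7 of the 16 barcodes with the fewest Cd5l UMIs and 19 of the 22 with the most. In 5 barcodes both Slc40a1 and Vcam1 were under 10, and 4 of these had at most 6 Cd5l UMIs. Ccr2 reached 10 UMIs in 12 barcodes and Mgl2 in 5. Itgad was found in 20 of 56 barcodes and reached 5 UMIs in 12, while Vsig4 reached 5 in 6. Both reached 5 in the same barcode in 2 of 56. Treml4, known from red pulp macrophages and nonclassical monocytes, was found in 51.

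The same genes can be followed without Cd5l. Barcodes with at least 10 UMIs of Slc40a1, 3 of Spic and 10 of Vcam1, a combination chosen after the values were seen, numbered 54 of 941 C1q macrophages in DMSO replicate 1 (5.74%). There was 1 of 672 in BPTES replicate 2, and none of 705 in BPTES replicate 1 or of 704 in DMSO replicate 2. Of the 54, 38 met the Cd5l threshold, 4 held 1 Cd5l UMI and 12 held none. Slc40a1, Spic and Vcam1 were taken from the Cd5l-positive barcodes of DMSO replicate 1. Their count there is thus a description and not a second line of evidence for a difference between the 2 DMSO libraries. Median depth was 17966 and 18943 UMIs per macrophage in those libraries, and 35810.5 in the 54 barcodes, and the part of depth was not tested. A difference between animals and one between libraries cannot be told apart here.

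The 5 Cd5l-positive barcodes of the other libraries mostly lacked that profile. Slc40a1 had no UMI in the 3 BPTES barcodes, and 0 and 57 UMIs in those of DMSO replicate 2. Vcam1 had 0, 1 and 2 UMIs in the BPTES barcodes and 2 and 8 in DMSO replicate 2, and Fcna had at most 1 in each of the 5. Spic had 28 UMIs in 1 barcode of BPTES replicate 2 and 0 in the other 4. The 3 BPTES barcodes instead held Arg1, the arginine-degrading enzyme of wound-type macrophages, at 121, 17 and 396 UMIs, and Fn1 (fibronectin) at 359, 164 and 186. Both genes were at 0 in the 2 barcodes of DMSO replicate 2. In DMSO replicate 1, Arg1 had 5 UMIs in all 56 barcodes together.

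**Figure D4:**
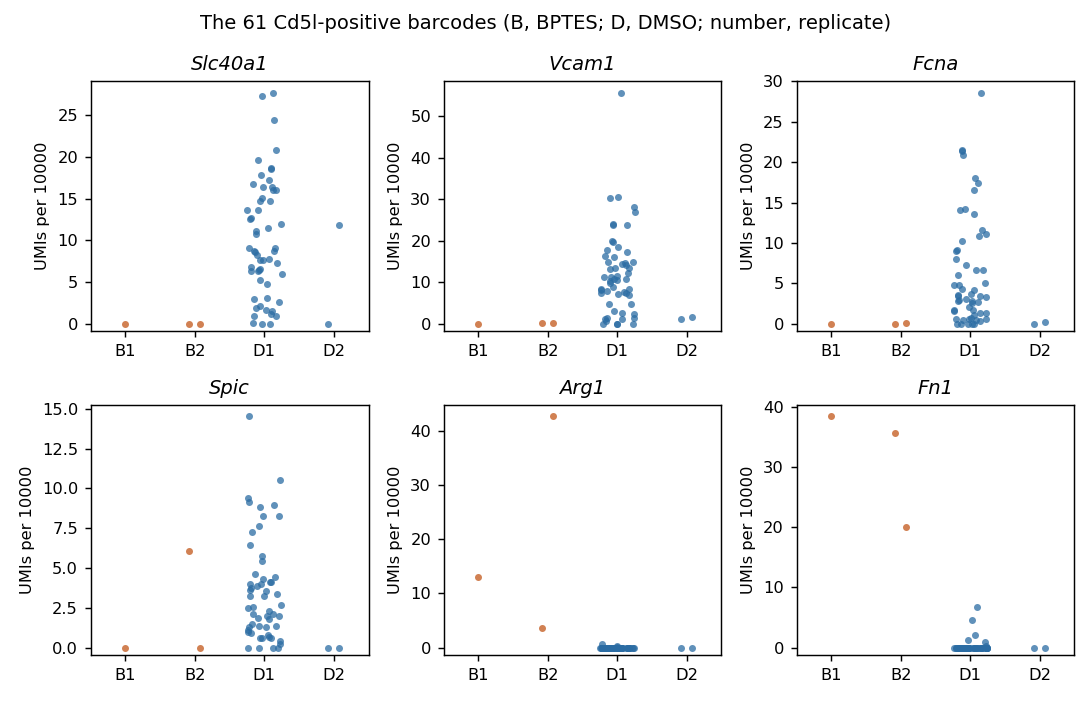
Share of a barcode's UMIs (per 10000) for 6 genes in each of the 61 Cd5l-positive barcodes, by library (B, BPTES; D, DMSO; points jittered sideways). Slc40a1, Vcam1 and Fcna reach their highest values in DMSO replicate 1, 1 barcode of DMSO replicate 2 is also high in Slc40a1, and Arg1 and Fn1 are high in the 3 BPTES barcodes.

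Barcodes rich in both Arg1 and Fn1 were not limited to those with Cd5l. With at least 10 UMIs of Arg1 and 100 of Fn1, limits set after the values were seen, there were 9 among C1q macrophages of BPTES replicate 1, 5 in BPTES replicate 2, and 1 in each DMSO library. Of these 16, 3 met the Cd5l threshold, 1 held 1 Cd5l UMI and 12 held none.

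The first treatment question was whether BPTES changed how many C1q macrophages hold Cd5l. The share was 0.142% (exact binomial 95% interval 0.00359 to 0.788%) and 0.298% (0.0361 to 1.07%) in the BPTES libraries, and 5.95% (4.53 to 7.66%) and 0.284% (0.0344 to 1.02%) in the DMSO libraries. DMSO replicate 1 stood far above the other 3, and DMSO replicate 2 lay between the BPTES libraries. The group means were 0.220% ± 0.110 (SD, n = 2) and 3.12% ± 4.01 (SD, n = 2), a difference of -2.90 percentage points with p = 0.667 in a 2-sided exact permutation test, whose smallest possible p is 0.333. Without DMSO replicate 1 the difference was -0.06 points. With each barcode thinned to 3000 UMIs, Cd5l was found in 1 of 696 and 1 of 666 BPTES barcodes and in 47 of 929 and 0 of 683 DMSO barcodes. In the library sums below, fewer Cd5l-positive cells and less Cd5l per cell cannot be told apart.

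Cd5l summed over all C1q macrophages gave the same picture. It fitted as -6.45 on the log2 scale with an SE of 3.35, BPTES over DMSO, with an adjusted p of 0.422 in edgeR's quasi-likelihood test across all genes. Without DMSO replicate 1 it was 0.87 (adjusted p = 0.596), so the sign of the difference came from that library. No gene of 13706 was called between the treatments in these sums (0%), while 2768 had an unadjusted p under 0.05. DESeq2 called 552, and edgeR called 722 without DMSO replicate 1 and 609 without DMSO replicate 2. For the gene lists, edgeR called 0 of 19 LXR and 0 of 17 iron-recycling genes, while DESeq2 called 4 and 5 of them lower, with medians of -0.21 and -0.42 beside -0.01 over all genes tested, of which DESeq2 called 257 lower. DESeq2 also called 11 of 26 lysosomal genes, 7 of 19 chemokines and 3 of 8 macrophage markers lower. Called higher were 3 of 6 neutrophil, 2 of 5 nonclassical monocyte and 2 of 7 B and plasma cell markers, beside 295 of all 13706 genes. Of 20 immediate early genes, 5 were called higher and 1 lower. The part of these markers and genes in the result was not tested.

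Treatment was then compared within the Cd5l-positive barcodes, where each library's sum came from 1, 2, 56 and 2 barcodes. Of 2361 genes tested, 4 passed an adjusted p of 0.05 in edgeR's quasi-likelihood test (0.169%), and 290 had an unadjusted p under 0.05. Arg1 was higher under BPTES, at 1297 and 2981 CPM against 2.19 and 0 in DMSO (adjusted p = 0.00852), and Fn1 stood at 3847 and 2526 against 60.4 and 0 (adjusted p = 0.0395). Slc40a1 was lower, at 0 and 0 against 908 and 873 (adjusted p = 0.0333), and so was Acp5, a lysosomal phosphatase, at 10.7 and 14.4 against 532 and 582 (adjusted p = 0.0337). A count of 0 allows up to 32.1 and 21.7 CPM in the BPTES sums and 45.9 in DMSO replicate 2. The dendritic markers of these sums were at 1768 and 202 CPM under BPTES against 142 and 15.3, and the macrophage markers at 4318 and 9743 against 20900 and 18890, and their part in the calls was not tested. In DMSO replicate 2, 1 barcode held all 57 UMIs of Slc40a1 and 37 UMIs of Acp5, and the other held 0 and 1. All 4 genes were also called without DMSO replicate 1, where the spread comes from the 2 BPTES sums alone and the lone DMSO sum is assumed to vary like them. With Cd5l of at least 1, Arg1 (adjusted p = 0.0838), Slc40a1 (0.106) and Acp5 (0.555) were not called in edgeR's test, with a spread shared over 8 sums Arg1 (0.0879) and Slc40a1 (0.265) were not, and with the crossed replicate block Fn1, Slc40a1 and Acp5 (0.143 each) were not. The log2 difference of Arg1 was 9.81 in the first fit, 8.77 with Cd5l of at least 1 and 9.85 with the shared spread, and that of Fn1 was 6.03 and, with the crossed block, 6.22. Acp5 was at -5.49 and, with Cd5l of at least 1, at -2.03. Slc40a1 stood at -4.35 with Cd5l of at least 1, and its other fitted values rest on zeros in both BPTES sums and give no size. The number of calls rose to 47, 100, 228 and 107 when BPTES replicate 1, BPTES replicate 2, DMSO replicate 1 or DMSO replicate 2 was left out. The calls describe 3 BPTES barcodes, and a different kind of barcode passing the Cd5l threshold cannot be told apart from a change within one kind. Among members of the lists, 1 of 13 iron-recycling genes, 1 of 23 lysosomal genes and 0 of 10 LXR genes were called lower, and 0 of 6 glutamine genes were called. Glul stood at 129 and 116 CPM under BPTES against 337 and 15.3 under DMSO (adjusted p = 0.735).

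The treatment difference was larger or smaller in Cd5l-positive than in Cd5l-zero macrophages for 57 of 12730 genes (0.448%; interaction term, edgeR's quasi-likelihood test, adjusted p under 0.05). By the naming rule, those shifted upward in Cd5l-positive barcodes were led by Arg1, Lyz1, Fgf13, Fn1, Spp1 and Anxa1, and those shifted downward by Slc40a1, Ptprm, S100a9, Acod1, Hebp1 and Fcna. For S100a9, the BPTES zeros allow 32.1 and 21.7 CPM against 15.3 (1 UMI) in DMSO replicate 2. Fcna stood at 0 and 7.22 (1 UMI) under BPTES against 15.3 (1 UMI) in DMSO replicate 2, and Lyz1 at 10.7 in BPTES replicate 1 against a 0 that allows 45.9 in DMSO replicate 2. DMSO replicate 2 therefore does not separate the treatments for these 3 genes. Spp1 also stood at 15.3 (1 UMI) in DMSO replicate 2, so its gap to BPTES replicate 1 rests on few UMIs. For Arg1, the Cd5l-zero macrophages stood at 52.0 and 17.7 CPM under BPTES and at 5.08 and 23.6 under DMSO, overlapping between the treatments. For Slc40a1 they stood at 9.04 and 16.9 against 35.2 and 5.45, also overlapping. Of the lists, 5 of 18 genes of monocyte-derived cells shifted upward (Fn1, Thbs1, S100a4, Itgam and Ccr2) and 4 of 17 iron-recycling genes downward (Slc40a1, Vcam1, Hmox1 and Fth1). Of 8 macrophage markers, 2 (Mertk and Ms4a7) were called downward, and the 6 dendritic markers, none of them called, had a median of 2.26 beside -0.29 over all genes. The Cd5l-positive sum of BPTES replicate 1 is the 1 barcode with a dendritic sum of 1768 CPM, and the part of these markers in the result was not tested. Without BPTES replicate 1, 21 genes were called, and without DMSO replicate 1, 88. No gene was called by edgeR with Cd5l of at least 3 (394 had an unadjusted p under 0.05), which leaves no barcode of DMSO replicate 2, or after thinning to 3000 UMIs (60). After thinning, each Cd5l-positive sum outside DMSO replicate 1 holds at most 6000 UMIs, and the fitted values of Lyz1 and Fgf13 there, -4.76 and -6.01, rest on so few UMIs that their sign shows no direction. Neutrophil genes were called in this comparison too, S100a8 and S100a9. The 6 neutrophil markers summed to 257 and 72.2 CPM in BPTES and to 980 and 30.6 in DMSO Cd5l-positive sums, and to 947 to 1191 in Cd5l-zero sums, and their part in the result was not tested.

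Across all 4 libraries, Cd5l-positive and Cd5l-zero macrophages were compared with each library as its own control. In edgeR's quasi-likelihood test, 107 of 12730 genes were higher (0.841%) and 328 lower (2.58%) in Cd5l-positive sums. The selecting genes were left out of these counts but not of the adjustment of p-values, which can make the adjusted p-values of other genes smaller. After thinning, 42 genes were higher and 32 lower. With no UMI of the other gate genes, 34 were higher and 6 lower, but that setting keeps 17 and 1 Cd5l-positive barcodes in the DMSO libraries and none under BPTES, so the libraries compared changed too. Several genes that were far higher in DMSO replicate 1 were not called, namely Slc40a1 (adjusted p = 0.647), Spic (0.525), Vcam1 (0.904) and Fcna (0.460). Named by rule, the genes with higher values in each library were led by Il18bp, Vat1, Fam213b, Serpinb6a, Ctsd, Anpep, Cfp, Slc16a10, Arhgap10, Ninj1, Mgst1 and Clec4d. Il18bp rested on 1 UMI in each BPTES library. Ctsd (cathepsin D) rose by 2.00 ± 0.29 (SE) on the log2 scale with an adjusted p of 1.37e-06, from 407, 383, 1507 and 1776 CPM in Cd5l-positive sums against 135, 152, 240 and 295. Cfp rose by 1.84 ± 0.30 with an adjusted p of 2.83e-05. Those with lower values in each library were led by Ccl17, Retnla, Ccl5, AA467197, Plxdc2, Il1r2, Dlc1, Stat4, Col14a1, Hs3st3a1, Egr1 and Slc2a3. For Ccl17, Retnla and AA467197 the 0 in BPTES replicate 1 allows up to 32.1 CPM, above their Cd5l-zero levels there of 28.5, 0.149 and 28.4, so that library shows no direction for them. The same holds for Slc2a3 in DMSO replicate 2, where the 0 allows up to 45.9 CPM against a Cd5l-zero level of 40.7. Plxdc2 fell by 3.25 ± 0.39 with an adjusted p of 4.08e-09. Cd74 fell by 1.05 ± 0.19 with an adjusted p of 0.000317, and H2-Aa, H2-Ab1 and H2-Eb1 were called with it, 4 of 14 MHC class II genes. Cx3cr1, the fractalkine receptor, fell by 1.59 ± 0.33 with an adjusted p of 0.00298.

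Of the lists in that comparison, 6 of 19 LXR genes were called higher and none lower (Nr1h3, Abca1, Cd38, Smpdl3a, Nr1d1 and Scd1), with a median log2 ratio of 0.95 beside -0.13 over all genes. Of 17 iron-recycling genes, 3 were called higher (Il18bp, Blvra and Blvrb), and of 26 lysosomal genes, 3 (Ctsd, Ctsl and Plin2). Lower were 4 of 19 chemokines, 6 of 20 immediate early genes and 4 of 19 inflammatory genes, none of which had a member called higher. Markers of other cells were called lower too, namely 2 of 5 B and plasma cell markers (Igkc and Ighm), 2 of 6 of endothelium (Emcn and Plvap), 1 of 7 of T and NK cells (Gzma), 1 of 6 of dendritic cells (Cd209a) and 1 of 5 of nonclassical monocytes (Spn), and their part in the result was not tested. Nr1h3 stood at 0 and 43.3 CPM in the BPTES Cd5l-positive sums and at 165 and 153 in the DMSO ones, against 7.32, 11.1, 17.9 and 10.5 in Cd5l-zero sums. The 0 in BPTES replicate 1 allows up to 32.1 CPM there, so that library shows no direction for Nr1h3.

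Without DMSO replicate 1, that comparison rests on 5 Cd5l-positive barcodes, and 35 genes were called higher (0.287%) and 115 lower (0.942%) of 12214. Of the 107 higher genes, 19 were called again, and of the 328 lower genes, 86. This fit shares 3 libraries with the first, and its median log2 ratio over all genes was -0.37. No LXR gene was called any more (0 of 18), although the list's median was 0.45. Nr1h3 stood at 2.16 on the log2 scale (adjusted p = 0.204) after 2.70 with all libraries, and Abca1 at 0.91 after 1.25. Of 17 iron-recycling genes, 1 (Hpgd) was called lower. Also called lower were 3 of 19 chemokines, 6 of 19 inflammatory genes, 3 of 20 immediate early genes, 4 of 14 MHC class II genes, 4 of 18 resident surface genes and 3 of 6 neutrophil markers, with no member of these lists called higher. Ctsd, Cfp, Ninj1, Slc16a10, Vat1, Anpep, Arhgap10, Serpinb6a and Clec4d remained called higher, and Cd74, H2-Aa, Cx3cr1 and Plxdc2 remained called lower. Adjusted p-values there were 0.00234 for Ctsd and 0.000230 for Cd74.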

How the data were processed

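The deposited tables hold raw UMI counts per gene and barcode, made by the authors with Cell Ranger 8.0.1 on the mm10 build, per the submitters' processing notes; the annotation is not given in the sources used here. Barcodes needed at least 500 UMIs, 300 genes and at most 50% mitochondrial UMIs. Counts were summed over the barcodes of each library and set, giving Cd5l-positive sums of 93323, 138566, 2284082 and 65325 UMIs (BPTES replicates 1 and 2, DMSO replicates 1 and 2). Sums were tested with edgeR 4.0.16 (quasi-likelihood test, TMM scaling, filterByExpr, Benjamini-Hochberg adjustment with the selecting genes included, threshold 0.05), and DESeq2 1.42.0 was an alternative. The comparison of sets had library as a block, and the interaction was added to it. Scripts were tested on simulated counts. Members and gene lists were chosen with earlier results of these data known. Genes were named by rule: called, mean log2 level of at least 5, groups not overlapping or 4 of 4 libraries alike, and the 12 largest each way (6 for the interaction), beside a set of macrophage genes always given. Doublets were predicted per library (Scrublet in scanpy 1.11.5, at 0.4% per 1000 barcodes): 2 of the 61. The added tdTomato sequence was left out. Replicate numbers showed no pairing of the libraries (correlation of deviations -0.11 over 13716 genes), but 1 correlation cannot exclude it. Some genes of the lists are not reported here.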

Additional observations from a re-analysis of the deposited data

Results flagged for a closer look

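The difference in treatment effect between Cd5l-positive and Cd5l-zero macrophages, tested as an interaction in edgeR's quasi-likelihood test, was called for 57 genes. The genes named by rule had adjusted p-values of 2.89e-18 for Arg1, 5.44e-06 for Lyz1, 7.22e-07 for Fgf13, 5.91e-17 for Fn1, 0.00011 for Spp1 and 0.00409 for Anxa1 among those shifted upward. Those shifted downward had 9.27e-13 for Slc40a1, 1.21e-08 for Ptprm, 7.71e-06 for S100a9, 0.00338 for Acod1, 0.0119 for Hebp1 and 1.98e-05 for Fcna. The Cd5l-positive sums behind them hold 1 and 2 barcodes under BPTES and 56 and 2 under DMSO. Spp1 stood at 53.6 and 426 counts per 1000000 UMIs under BPTES and at 28.9 and 15.3 under DMSO. The 15.3 is 1 UMI of DMSO replicate 2, so the gap of Spp1 to the 53.6 of BPTES replicate 1 rests on few UMIs. Each value outside DMSO replicate 1 rests on 1 or 2 barcodes, and these p-values do not measure the spread between single cells. After thinning to 3000 UMIs per barcode, the Cd5l-positive sums outside DMSO replicate 1 hold 3000 to 6000 UMIs, and the fitted values of Lyz1 (-4.76) and Fgf13 (-6.01) there show no direction. No gene was called by edgeR there or with Cd5l of at least 3, which leaves no barcode of DMSO replicate 2 (60 and 394 at an unadjusted p under 0.05).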

How the results depend on the processing

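Counts of calls moved with the settings, and the cause was not tested. For treatment within Cd5l-positive barcodes (4 calls), DESeq2 gave 35, no low-count filter 107, Cd5l of at least 3 gave 92 (no barcode of DMSO replicate 2 is left, and the lone DMSO sum is assumed to vary like the others), at least 1 gave 1, and a spread shared over 8 sums gave 58; leaving out 1 library gave 47 to 228. The replicate numbers showed no pairing of the libraries, which does not exclude it. A replicate block gave 15 calls within Cd5l-positive barcodes and left none among all C1q macrophages (Cd5l at -5.84). The crossed replicate block, chosen after seeing the data, gave 1 and 16 calls. For Cd5l-positive against Cd5l-zero (435 calls), DESeq2 gave 137, no UMI of the other gate genes 40 (DMSO libraries only), thinning 74, and leaving out 1 library 150 to 525. For the interaction (57 calls), DESeq2 gave 14, leaving out 1 library 21 to 88, and edgeR gave 0 with Cd5l of at least 3 (394 at an unadjusted p under 0.05) and 0 after thinning (60), where Lyz1 (-4.76) and Fgf13 (-6.01) changed sign on sums too small to give a direction. Cd5l over all C1q macrophages ran from -7.44 to 0.87 without 1 library, positive without DMSO replicate 1 and called without DMSO replicate 2 (adjusted p = 5.36e-08). The share difference became 42.96 points in the depth window, where BPTES replicate 1 keeps 1 barcode, and stayed negative in the other settings. In DMSO replicate 1, 440 genes 2-fold higher became 1899 after thinning and 692 with no UMI of the other gate genes, and 657 lower became 1143 in the depth window. Each sum was set to at least 3 counts, and the Cd5l-positive sums of the first 2 settings held only 168000 and 529352 UMIs. A gene with few or no UMIs there can count as 2-fold higher through that floor. The 1899 and 692 therefore do not show that more genes were higher. The strict gate and the depth window left too few sums for the treatment and interaction fits, and the depth window for the set comparison, which were not run.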
